A study of Mus musculus with 2 samples.

Results

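Solute carriers are the membrane proteins, numbered by family under the prefix Slc, that move small molecules such as amino acids, sugars, metal ions and nucleotides into cells or between their compartments. The genes described here were chosen by name alone, as every gene name of the form Slc, family number, letter and member number, in direct RNA sequencing of mouse retinal organoids. Each library has a plus and a minus table, and all counts here are of the plus tables. In those of either library 109 such genes were listed, and 32 of them had at least 1 site, that is, a listed position covered by 20 or more reads in replicate 2. These 32 genes carried 122 sites on 34 transcripts, or 0.753% of the 16212 such sites in 3919 named genes. Of the 122 sites, 96 were also listed in replicate 1, and 35 sites in 13 genes reached 20 reads in both libraries.

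Both libraries came from wild-type organoids of the mouse Rx:GFP line, differentiated for 6 days in medium with serum replacement and 0.1 µM AGN. They form 1 group (n = 2) and carry the same batch label. Rx:GFP is a stem cell line whose green fluorescent protein reports Rx, the eye-field gene Rax, and organoids are aggregates grown from such cells. No second genotype, treatment or time was compared, so the values compare sites and genes within this 1 condition. The labels do not say whether the 2 samples were separate cultures, so the spread between them may be technical. All 7 eye-field marker genes (Rax, Six3, Six6, Lhx2, Pax6, Otx2 and Sox2) were listed in both libraries, while 0 of 3 pluripotency, 0 of 2 mesoderm, 0 of 3 endoderm and 0 of 2 neural crest markers were listed in either.

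N6-methyladenosine (m6A) is a methylated adenosine placed on messenger RNA in the nucleus by a complex with METTL3 as its catalytic subunit, and reader proteins that bind it affect the decay, export and translation of the RNA. It occurs mainly where the adenosine follows a purine and precedes a cytosine. In direct RNA sequencing the native strand passes through a pore, and a modified base changes the ionic current. Each listed position has a fraction modified, between 0 and 1, and a coverage, the number of reads over it.

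All listed positions lay in 4 sequences of 5 bases, shown because the fraction depends on them. The sequence GGACA held 35 of the Slc sites. A further 42 lay in GGACT, which differs from it in the last base. Another 26 were read at GGACC, and the remaining 19 Slc sites fell in AGACT. In each the central adenosine, the third base, is the one that m6A modifies. Positions below are the ends of the listed intervals, counted from the transcript start. At 23 of 108 listed positions near a transcript start, the motif in the RefSeq promoter window (GRCm38.p6) began 3 bases before this end, against 3 positions at the next most frequent offset. By this count the listed end is base 4 of the motif and the adenosine lies 1 base before it.

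Slc sites spanned the whole scale from 0 to 1, often within 1 gene. The median fraction was 0.354 in replicate 1 (96 sites) and 0.321 in replicate 2 (122 sites), or 0.338 ± 0.0235 (SD, n = 2). At sites of other genes it was 0.375 (12025 sites) and 0.345 (16090 sites). A fraction of 0.5 or more was seen at 33 of 96 Slc sites (34.4%, 95% Wilson interval 25.6% to 44.3%) in replicate 1, where it was reached by 42.4% of all sites. In replicate 2 it was seen at 41 of 122 (33.6%, 25.8% to 42.4%), against 37.5% of all sites. A fraction of 0.1 or less was seen at 25 of the 122 sites in replicate 2 (20.5%), against 16.6% of all sites. Wilson intervals cover counting error only, and sites of 1 gene share their reads. Of the 26 genes with 2 or more sites, 16 had sites more than 0.5 apart in replicate 2, a share (61.5%) near the 64% of all such genes.

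**Figure D1:**
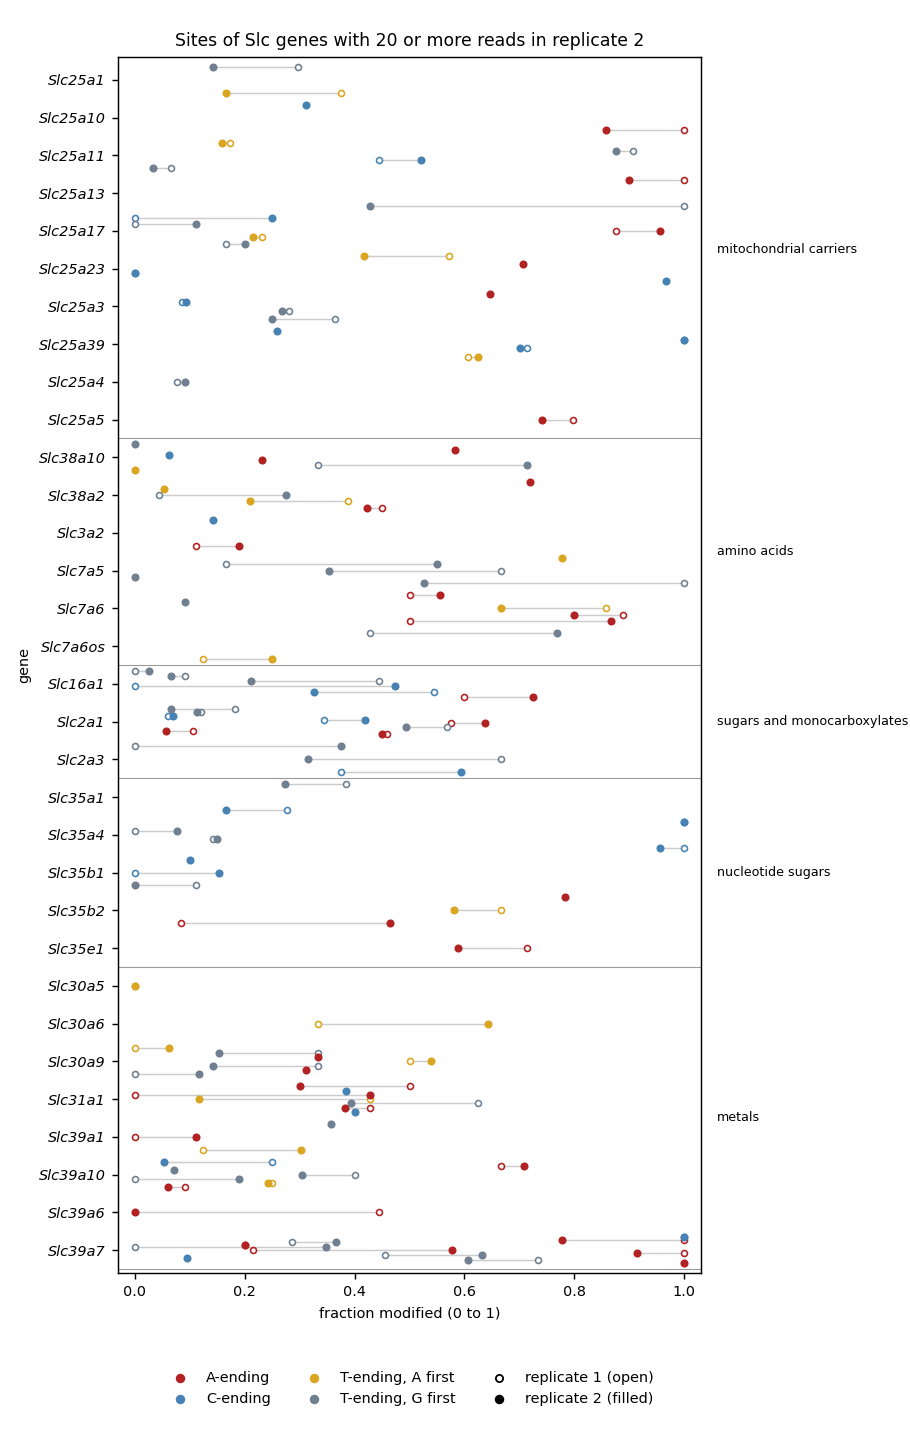
Fraction modified (x axis, 0 to 1) at each of the 122 Slc sites, 1 row per gene, grouped by transport class. Filled points are replicate 2, open points replicate 1 where the site was listed, and a line joins the same site; colours give the motif (A-ending GGACA, C-ending GGACC, T-ending GGACT and AGACT). Sites of one gene, such as Slc39a7 or Slc25a11, are spread over most of the axis.

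The members divide by family number into transport classes. Each class is named for its families, and a member may carry another solute, as Slc35b2, described below, does. Sites were found in 10 of 26 listed Slc25 genes and 6 of 14 genes named in the amino acid families. Of those 6, Slc7a6os encodes no transporter. In the sugar and monocarboxylate families it was 3 of 10 genes. In the nucleotide sugar family Slc35 it was 5 of 16, and in the metal families 8 of 15. None of the 7 listed genes of the inorganic ion families or the 21 of the remaining families had a site with 20 reads. A site needs 20 reads, so these counts depend on coverage. The share of all listed genes with a site is not given here. The class medians in replicate 2 lay close together, at 0.313 for Slc25, 0.353 for amino acids, 0.326 for sugars and monocarboxylates, 0.273 for nucleotide sugars and 0.323 for metals. In replicate 1 they were 0.369, 0.439, 0.345, 0.278 and 0.333 in the same order. The nucleotide sugar class was lowest in both libraries and no test across these few genes was made.

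Slc25 carriers move metabolites across the inner membrane of mitochondria, and the deepest Slc sites were theirs. In these bulk libraries a coverage cannot separate the number of expressing cells from RNA per cell, and a fraction is an average over cells. Slc25a3 (chromosome 10, 90952436 to 90959921) encodes the mitochondrial phosphate carrier. Gene coordinates here are those of the deposited tables, in a build that was not settled. On its transcript ENSMUST00000076694.12 the GGACC site at position 421 had a fraction of 0.0856 in replicate 1 (261 reads) and 0.0935 in replicate 2 (464 reads). The GGACT site at position 1243 of that transcript had 0.281 over 276 reads and 0.269 over 484 reads. The sites differed in the same direction in both libraries, by far more than the replicates did. The same position on a second transcript of the gene, ENSMUST00000163246.7, had 0.364 over 21 reads and 0.250 over 23 reads. How reads were divided between these similar transcripts is not given in the sources used here. A GGACA at position 85 was listed in replicate 2 only, with 0.647 over 33 reads.

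Slc25a4 and Slc25a5 encode adenine nucleotide translocases, which exchange ADP and ATP across the inner membrane, and each had 1 site. In Slc25a4 (chromosome 8, 46659834 to 46664321) the GGACT at position 767 had 0.0773 in replicate 1 (287 reads) and 0.0916 in replicate 2 (561 reads). In Slc25a5 (chromosome X, 36059304 to 36062460) the GGACA at position 392 had 0.797 over 186 reads and 0.741 over 328 reads. The 2 genes are close paralogs read at different motifs and positions, so their fractions are given side by side, and reads shared between them cannot be told apart here.

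Slc25a39 (chromosome 11, 102293811 to 102298772), required for import of glutathione into mitochondria, had the highest mean among the 7 Slc25 genes with 20 reads in both libraries. Its GGACC at position 185 had a fraction of 1 in both replicates, over 40 and 93 reads. The GGACC at position 470 followed with 0.714 over 42 reads and 0.701 over 96 reads, and the AGACT at position 1294 with 0.607 over 47 and 0.625 over 100. The mean over these sites was 0.775 ± 0.00115 (SD, n = 2), within the spread of the single Slc25a5 site (0.769 ± 0.0398, SD, n = 2). A GGACC at position 78, with 0.258 over 48 reads, was listed in replicate 2 only.

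In other genes a fraction of 1 was seen at 27 of 3556 GGACC sites in replicate 2 and at 88 of 2527 in replicate 1, the less deeply read library. Among the GGACC sites of Slc genes it was seen at 3 of 26 in replicate 2 and 4 of 17 in replicate 1, and each of the 3 was also at 1 in replicate 1. Besides Slc25a39, they were position 163 of Slc39a7 (15 and 34 reads) and position 1432 of Slc35a4 (8 and 20 reads). The last 2 were below 20 reads in replicate 1.

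Slc25a11 (chromosome 11, 70535022 to 70538305) encodes the oxoglutarate carrier, which exchanges oxoglutarate for malate. It had 4 sites with 20 reads in both libraries and a mean of 0.397 ± 0.00076 (SD, n = 2). Its GGACT at position 1160 had 0.906 over 44 reads and 0.875 over 74 reads. Another GGACT, at position 1559, had 0.0667 over 39 reads and 0.0323 over 60 reads. Copies of 1 motif on 1 transcript thus lay near both ends of the scale, and the replicates did not overlap between them. The AGACT at position 369 (0.166 ± 0.0113) and the GGACC at position 1218 (0.483 ± 0.0547; each SD, n = 2) lay between.

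Slc25a17 (chromosome 15, 81203112 to 81245013) is a member of this family that resides in peroxisomes. Its GGACA at position 975 had 0.875 over 20 reads and 0.957 over 34 reads, while its other 4 sites were at 0.231 or less in replicate 1 and 0.250 or less in replicate 2. Slc25a1 (chromosome 16, 17743087 to 17746083), the mitochondrial citrate carrier, had 0.296 over 29 reads and 0.143 over 60 reads at position 923, and 0.375 over 30 reads and 0.167 over 63 reads at position 1073. Both of its sites were lower in replicate 2, and their mean was 0.245 ± 0.128 (SD, n = 2). Slc25a23, a calcium-regulated carrier of ATP-magnesium and phosphate, had 4 sites in replicate 2, over 20 to 36 reads, from 0 at position 2969 to 0.967 at position 3223. The remaining 2 genes, Slc25a10 and Slc25a13, had 2 sites each, and the 3 of these sites that were listed in replicate 1 had 5 or 6 reads there.

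The first comparison set Slc25 genes against the other Slc genes. Over all motifs the 29 Slc25 sites and the 93 other Slc sites were close in median, at 0.313 and 0.326 in replicate 2, and at 0.369 (24 sites) and 0.339 (72 sites) in replicate 1. The difference, Slc25 minus other Slc, was 0.0303 in replicate 1 and -0.0136 in replicate 2, and changed sign between libraries. Averaged over the 4 motifs with equal weight, it was 0.104 and 0.0541, a mean that includes the GGACA gap below. At 20 to 49 reads this average was -0.0244 in replicate 1 and 0.0855 in replicate 2. At GGACA the medians lay apart. The 6 Slc25 sites, 1 in each of 6 genes, ranged from 0.647 to 0.957 in replicate 2, with a median of 0.799, and the 4 listed in replicate 1 from 0.797 to 1, with a median of 0.938. The other Slc genes had a median of 0.464 over 29 sites in replicate 2 and 0.455 over 22 sites in replicate 1. The gap was 0.483 and 0.335 in replicates 1 and 2 (mean 0.409 ± 0.105, SD, n = 2). The ranges overlapped, as the other Slc sites ran from 0 to 1 in both libraries.

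Few reads stood behind part of that gap. Of the 4 Slc25 GGACA sites in replicate 1, those of Slc25a10 and Slc25a13 had 5 reads each, and only Slc25a5 exceeded 50 reads in both libraries. All 6 reached 0.5 in replicate 2, against 64.1% of all GGACA sites. Differences at the other motifs were smaller in these sites and had no stable sign. At GGACT the difference was -0.0288 and -0.0727 in replicates 1 and 2, and at AGACT, 0.0417 and -0.0319, the sign changed. At GGACC it was -0.0798 and -0.0136. The mean was -0.129 without a minimum and -0.274 at 20 to 49 reads (-0.639 in replicate 1 and 0.0914 in replicate 2), and it turned to 0.237 with at least 50 reads in replicate 2 and 0.293 with 20 in both libraries, each resting on 4 Slc25 sites in 3 genes. The AGACT mean with 20 in both was -0.215, over 4 Slc25 sites and 2 others. With 2 libraries the exact paired permutation test (two-sided) has a smallest possible p of 0.5, which holds for each difference given here.

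**Figure D2:**
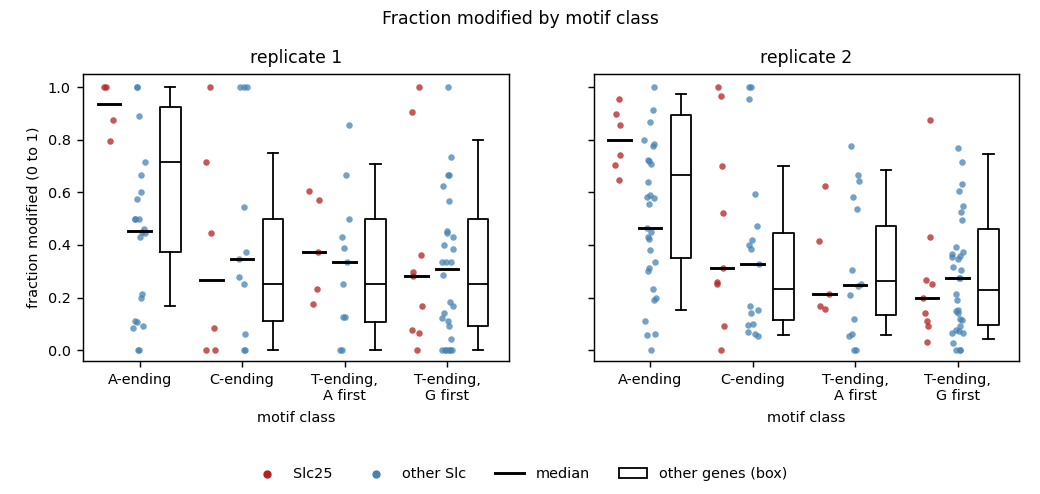
Fraction modified (y axis, 0 to 1) by motif class in replicate 1 (left) and replicate 2 (right): A-ending is GGACA, C-ending GGACC, and T-ending AGACT or GGACT by first base. Points are sites of Slc25 genes (red) and other Slc genes (blue) with their median as a bar; boxes give the quartiles of other genes, with whiskers at the 10th and 90th percentiles. At GGACA the other Slc genes have medians of 0.455 and 0.464, below the 0.714 and 0.667 of other genes.

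The second comparison set Slc genes against all other genes within each motif. At GGACA, the motif with the highest fractions in this RNA, the Slc genes were lower than other genes, by a difference of -0.214 in replicate 1 (26 sites) and -0.0834 in replicate 2 (35 sites; mean -0.149 ± 0.0926, SD, n = 2). Without the 6 Slc25 sites, a split made after their values were seen, the medians were 0.455 against 0.714 in replicate 1 and 0.464 against 0.667 in replicate 2. For these Slc genes outside Slc25 the difference was -0.260 and -0.202 in replicates 1 and 2 (mean -0.231 ± 0.0404, SD, n = 2). Below the median of other genes lay 18 of 22 of the sites outside Slc25 in replicate 1, where 50.1% of all GGACA sites did, and 20 of 29 in replicate 2, against 49.5%. The 29 sites came from 14 genes, and in 11 of the 14 the gene's own GGACA median in replicate 2 was below that of other genes, which held for 52.5% of all genes with a GGACA site. In replicate 1 it was 11 of 12, against 53.1%. A fraction of 0.5 or more was seen at 10 of 22 sites in replicate 1, against 67.9% of all GGACA sites, and at 14 of 29 in replicate 2, against 64.1%. With Slc25 included it was nearer to these shares, at 14 of 26 (53.8%) in replicate 1 and 20 of 35 (57.1%) in replicate 2. The 29 sites had a median coverage of 38 reads in replicate 2, against 37 at GGACA of other genes. In replicate 1 the 22 listed sites had 15, against 17. The 29 sites lay farther along the transcript, at a median position of 1897 against 1294. Among positions beyond 1000 the mean difference was -0.235. Whether coverage or position bears on the difference was not tested.

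At GGACC the Slc genes were slightly higher than other genes, by 0.0948 in replicate 1 (17 sites) and 0.0885 in replicate 2 (26 sites). Its size changed with the reads required, with a mean of 0.0653 with 10, 0.197 with 50, and 0.0160 at 20 to 49 reads. At GGACT the difference was 0.0357 and 0.0008, and at AGACT 0.104 and -0.0208, so neither held in size across the libraries. The GGACT mean was negative with 10 reads (-0.0111), 50 reads (-0.0909) and 20 in both libraries (-0.0302). Averaged over the 4 motifs with equal weight, Slc genes differed from other genes by 0.00509 in replicate 1 and -0.00373 in replicate 2. The motif makeup also differed: GGACA was 27.9% ± 1.14 of Slc sites and GGACT 36.5% ± 2.91 (each SD, n = 2), while in other genes these were 37.5% and 24.9% in replicate 1 and 35.7% and 24.1% in replicate 2.

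The sites behind the low GGACA values were spread over several transport classes. Slc2a1 (chromosome 4, 118965908 to 118995180) encodes GLUT1, a glucose transporter of the plasma membrane, and was the most deeply read gene outside Slc25. Its 8 sites, on transcript ENSMUST00000030398.9, all had 52 to 65 reads in replicate 1 and 130 to 136 in replicate 2. They averaged 0.295 ± 0.00976 (SD, n = 2). Its GGACA at position 2441 had 0.105 over 65 reads and 0.0566 over 136 reads. The next GGACA, at position 2533, had 0.460 over 60 and 0.450 over 130. The third, at position 2128, had 0.576 over 58 and 0.638 over 134. Their order was the same in both libraries, all below the median of other genes. Of its 3 GGACT sites, position 2228 had 0.531 ± 0.0524, and positions 1711 and 1882 had 0.124 ± 0.0820 and 0.117 ± 0.00552 (each SD, n = 2).

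Slc2a3 encodes GLUT3, another glucose transporter, and had 1 site with 20 reads in both libraries, a GGACC at position 3607 with 0.375 over 23 reads and 0.595 over 53 reads. Slc16a1 encodes MCT1, which carries lactate and pyruvate. Its 6 sites had 50 to 66 reads in replicate 2 and 13 to 16 in replicate 1. The fraction in replicate 2 was 0.0256 at position 945 and 0.725 at position 1783, the latter a GGACA with 0.6 in replicate 1. At position 1323 the libraries were far apart, with 0 over 14 reads and 0.474 over 57.

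**Figure D3:**
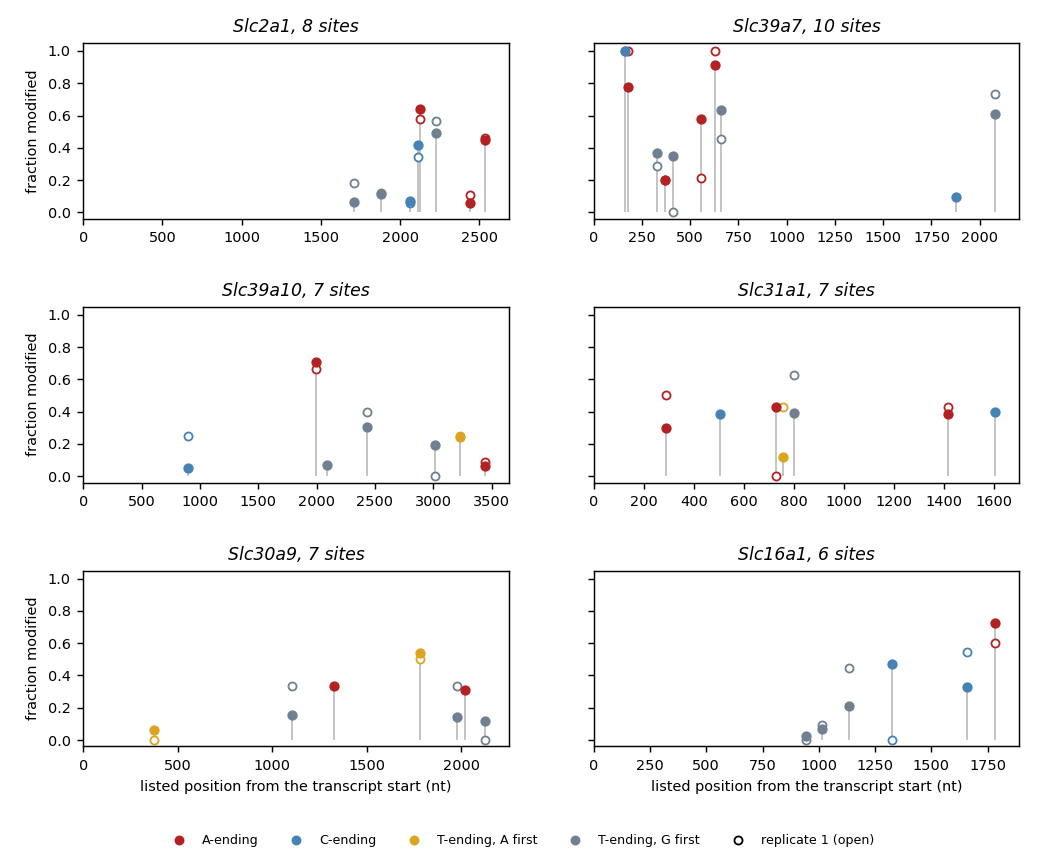
Fraction modified (y axis, 0 to 1) against the listed position from the transcript start (x axis, nt) on the deepest transcript of 6 Slc genes with many sites. Filled points and stems are replicate 2, open points replicate 1, and colours give the motif as in the plot of sites by gene. Slc39a7 is high near its start, with 1 in both replicates at position 163, while 7 sites of Slc31a1 stay between 0.118 and 0.429 in replicate 2.

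Metal transporters gave the most sites, 38 in 8 genes. Slc39a7 (chromosome 17, 34247243 to 34250656) encodes ZIP7, which releases zinc from the endoplasmic reticulum and Golgi, and had 11 sites, more than any other Slc gene. One of them, at position 2080, had 20 reads in both libraries, with 0.733 over 30 reads and 0.607 over 55. Near its start, position 163 was at 1 in both libraries, and the GGACA 13 nt farther, at 176, had 1 over 17 reads and 0.778 over 35. The GGACA at position 368 had 0.2 in both libraries, over 18 and 38 reads, and that at 629 had 1 over 19 and 0.914 over 40. GGACA values in Slc39a7 thus ran from 0.2 to 1 in both libraries, and some other Slc genes, such as Slc2a1 and Slc39a10, had lower ones.

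Slc39a10 encodes ZIP10, a zinc importer of the plasma membrane. Its GGACA at position 3440 had 0.0909 in replicate 1 (12 reads) and 0.0606 in replicate 2 (52 reads), and the GGACA at position 1992 had 0.667 over 6 and 0.708 over 36. Slc31a1 encodes CTR1, the high-affinity copper importer. In replicate 2 its 7 sites were the most even among the genes with 5 or more sites, from 0.118 to 0.429 over 21 to 53 reads, and its 3 GGACA sites had 0.3, 0.429 and 0.382. Replicate 1 gave 0.5, 0 and 0.429 at these, over 10 or 11 reads, and its 5 listed sites ran from 0 to 0.625, so the evenness was not seen there. Slc30a9, a zinc transporter of mitochondria, had 7 sites over 20 to 24 reads in replicate 2, and both of its GGACA sites (0.333 at position 1328 and 0.313 at position 2021) were not listed in replicate 1.

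Slc7a5 encodes LAT1, the transporter of large neutral amino acids that pairs with the heavy chain encoded by Slc3a2. Its 5 sites ran from 0 to 0.778 in replicate 2 over 25 to 28 reads, with 6 or 7 reads in replicate 1 where listed. GGACT copies at positions 2187 and 2193, 6 nt apart, had 0 and 0.526 over 28 reads each in replicate 2, and only the second was listed in replicate 1. Slc38a2 encodes SNAT2, a sodium-coupled carrier of neutral amino acids. Its GGACA at position 4360 had 0.450 over 37 reads and 0.422 over 74, below the median of other genes. Its other GGACA, at position 426, was listed in replicate 2 only, with 0.72 over 42 reads, above the median of other genes. An AGACT at position 3573, also listed in replicate 2 only, had 0.0536 over 70 reads. At position 3661 the fraction was 0.0435 over 29 reads and 0.275 over 70. Slc7a6 encodes a light chain of cationic and neutral amino acid exchange. Its 3 GGACA sites, at positions 1356, 2602 and 2986, had 0.556, 0.8 and 0.867 in replicate 2, over 21 to 26 reads. In replicate 1 they had 0.5, 0.889 and 0.5, over 7, 10 and 11 reads, so their order was not the same. Slc38a10 had 6 sites over 22 to 25 reads in replicate 2, from 0 at positions 2797 and 3790 to 0.714 at position 3616, and only the last was listed in replicate 1.

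Among carriers of the secretory pathway, Slc35b2 imports the sulfate donor PAPS into the Golgi. It held the site with the largest difference between libraries among those with 20 reads in both, a GGACA at position 1686 with 0.0833 over 21 reads and 0.464 over 46. Slc35a1, the CMP-sialic acid transporter, had 0.385 over 22 reads and 0.273 over 31 at position 1219, and 0.278 over 25 and 0.167 over 32 at position 1547. Slc35a4 had GGACC sites at 1 and 0.957 (positions 1432 and 2742) and GGACT sites at 0.0769 and 0.150 (positions 1664 and 1802) in replicate 2, each over 20 to 30 reads. Slc35b1 had 3 sites, at positions 448, 891 and 1361, with 0.154 or less in replicate 2, and the 2 listed in replicate 1 were at 0.111 or less.

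The other 9 genes (Slc25a10, Slc25a13, Slc30a5, Slc30a6, Slc35e1, Slc39a1, Slc39a6, Slc3a2 and Slc7a6os) had 1 to 3 sites each, over 20 to 37 reads in replicate 2 and 17 or fewer in replicate 1. Their fractions in replicate 2 ran from 0 to 0.9. Slc7a6os is named for lying on the strand opposite to Slc7a6 and encodes no solute carrier, but fits the naming rule. The deposited intervals of both genes do not overlap.

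The libraries agreed better where reads were deeper. The root mean square difference was 0.198 over the 96 Slc sites listed in each library, and 25 of them (26%) were more than 0.2 apart, against 15.7% of all such sites. At the 35 with 20 reads in both, it was 0.116, and 4 sites (11.4%) were more than 0.2 apart, against 5.94%. Those 4 were in Slc35b2, Slc38a2, Slc2a3 and Slc25a1. Among sites with 5 to 9 reads in replicate 1 the value was 0.272 (20 sites), and with 10 to 19 reads 0.209 (41 sites). Pearson's r across the 35 sites was 0.909 and Spearman's rho 0.849, a description across sites that share libraries and, in part, reads. Replicate 2 was lower at 21 of them, higher at 13 and equal at 1.

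**Figure D4:**
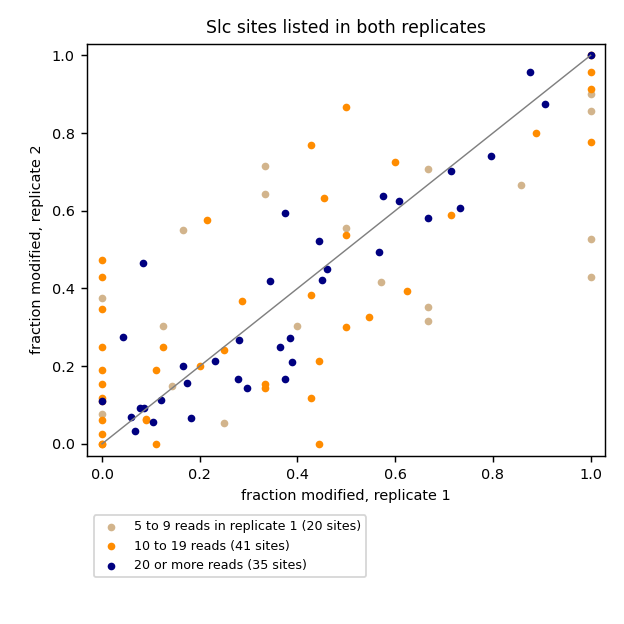
Fraction modified in replicate 2 (y axis) against replicate 1 (x axis) at the 96 Slc sites listed in both, with the line of equality; colours give the reads in replicate 1. Sites with 20 or more reads (35) lie nearest the line, with 4 of them more than 0.2 apart.

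Coverage usually rose toward the 3′ end of the transcript. Among 20 transcripts with 3 or more sites, the last site had more reads than the first in 16, with a median ratio of 1.28 in replicate 2. This was near the share over all 2589 such transcripts (80.7%, median ratio 1.18). On Slc25a3 the count rose from 33 reads at position 85 to 484 at position 1243, and on Slc39a10 from 28 at position 896 to 52 at position 3440. Slc31a1 went the other way, from 49 reads at position 289 to 21 at position 1605. Of the 26 sites not listed in replicate 1, 20 lay on transcripts with under 20 reads at every listed position there, and 6 on transcripts that reached 20 reads elsewhere.

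The other 77 listed Slc genes, 16 of them Slc25, stayed under 20 reads in the plus table of replicate 2. They held 425 positions there and 150 in replicate 1, and 39 of them reached 10 reads at some position of replicate 2. Slc35c2, Slc20a2 and Slc48a1 came closest, with at most 19 reads. Slc38a1, an amino acid carrier, had 32 positions in replicate 2 with at most 16 reads. One gene, Slc25a12, was listed in replicate 1 only. Their listed fractions rest on few reads, with medians in replicate 2 of 0.5 in Slc35c2 and 0.458 in Slc38a1. Positions under 5 reads were not listed, and a low number of RNA copies cannot be told from RNA without listed sites.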

How the data were processed

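Direct RNA libraries (SQK-RNA002, 1 flow cell each) gave 1 plus and 1 minus table per library. Coverage is a deposited count of reads, and the modified score is a fraction (0 to 1), both as deposited, per the file headers. Base caller, aligner and modification caller are not given in the sources used here. Multiplied by the coverage, 46.4% (replicate 1) and 38.8% (replicate 2) of Slc fractions lie within 5e-05 (their rounding) of a whole number of reads over the coverage, so the denominator is unknown and no interval or read test was set on single fractions. The submitters' processing notes name mm10, but 2 of 32 Slc gene starts lay within 1000 bases of GRCm38.p6. Gene coordinates are therefore given as deposited, build unknown, and placement in exons or untranslated regions was not analysed here.

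Slc genes were matched by name, and sites (at least 20 reads in replicate 2) by transcript and listed end. Low coverage adds sampling error, which is larger in replicate 1. Listed positions may not be all those examined. Medians by motif were computed per library with Python 3.11.15 and pandas 2.3.3. Simulated data with set differences were used to check the code only. They held far more Slc sites, with less spread between sites, than these data. Means carry SD (n = 2). Sites and genes are not replicates, so no test was run across them. Members, lists and alternatives were chosen with earlier results of these data known. Described by position are the 13 genes with 20 reads in both libraries, the 10 others with most sites, and the 5 highest and 5 lowest sites with 50 reads. For brevity not every site of these is printed. Other sites named were chosen after their values were seen.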

Additional observations from a re-analysis of the deposited data

Results flagged for a closer look

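The minus tables, which entered no comparison, held 1 Slc gene. Slc38a6 had a GGACA at position 1879 of ENSMUST00000153941.7 with a fraction of 0.96 in replicate 1 (33 reads) and 0.969 in replicate 2 (81 reads). A GGACC at position 1852 of another transcript had 0.5 over 6 reads in replicate 2. Positions are listed from 5 reads on, so no level of 0 was available to compare with. In the plus tables the gene had 1 position, at 5 reads in replicate 2.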

How the results depend on the processing

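The counts followed the coverage minimum by construction: 637 Slc sites in 108 genes without one, 351 in 71 with 10 reads, 36 in 13 with 50, and 35 in 13 with 20 in both libraries. The lower GGACA fractions of Slc genes outside Slc25 kept their direction under all 10 alternatives, with means from -0.241 to -0.164, and were -0.260 and -0.202 in the single replicates. The alternatives share sites, and the split was made after the values were seen, so they are not separate evidence. With 50 reads, Slc genes held 8 GGACA sites, 1 of them in Slc25. With 20 in both they held 7, with 2 in Slc25. The differences were nearest to 0 with 10 reads (-0.165, and -0.0953 in replicate 2) and, chosen after seeing the data, with 20 to 49 reads (-0.164, and -0.100 in replicate 2). The higher GGACA fractions of Slc25 also kept their direction, with means from 0.333 to 0.476 and 0.335 to 0.483 in the single replicates. In replicate 2 the gap fell to 0.192 with 10 reads (18 sites of Slc25), and with 50 reads or 20 in both they rested on 1 and 2 sites of Slc25. Over all motifs Slc25 minus other Slc had no stable sign: -0.0625 without a minimum, -0.0366 with 10 reads, -0.116 with 20 in both, 0.0398 with 1 transcript per gene, 0.0755 with each gene counted once, and -0.0304 at sites listed in both and 0.077 beyond position 1000, both chosen after seeing the data. Nor had the average over motifs against other genes: 0.0178 without a minimum, -0.0272 with 50 reads, 0.0150 at sites listed in both, -0.0108 with 20 to 49 reads and 0.00789 beyond position 1000. Smaller differences turned in sign: Slc25 minus other Slc at GGACT became 0.0547 with 50 reads and 0.0234 beyond position 1000, and Slc outside Slc25 minus other genes became -0.0961 at GGACT with 50 reads and, over all motifs, 0.0152 without a minimum and 0.0286 with 20 in both. Slc25 minus other Slc at GGACC became 0.237 with 50 reads and 0.293 with 20 in both, and at AGACT -0.215 with 20 in both. All Slc minus other genes became -0.0111 at GGACT with 10 reads, -0.0909 with 50 and -0.0302 with 20 in both; they stayed negative at GGACA, with means from -0.226 to -0.116 (-0.0339 in replicate 2 with each gene counted once), and positive at GGACC, from 0.0160 with 20 to 49 reads to 0.197 with 50. Their causes were not tested.

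The share of Slc sites at 0.5 or more was 40.2% without a minimum, 38.4% with 10 reads, 28.6% with 50, 30% with 20 in both, 36.6% with 20 to 49 and 33.3% beyond position 1000. That of GGACA was 26.6% with 10 reads, 22.9% with 50, 20% with 20 in both, 30.2% with 20 to 49 and 26.2% beyond position 1000. Shares over all sites are not given at these settings. Whether either change is particular to Slc genes was not tested. The root mean square difference between replicates was 0.231 without a minimum, 0.221 with 10 reads, 0.134 with 50, 0.116 with 20 in both, 0.225 with 20 to 49, 0.202 beyond position 1000, 0.198 with 1 transcript per gene and 0.196 without Slc7a6os. Leaving out a replicate leaves the value of the other, so with n = 2 it says nothing about stability. No paired analysis was possible because the samples form 1 group, so no replicate block between groups exists.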
